A study of Sus scrofa with 21 samples.

Results

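The natriuretic peptide system was described here through 6 genes, selected by gene symbol from the 25880 genes of the deposited count table, and each symbol was found there. NPPA encodes the precursor of atrial natriuretic peptide and NPPB that of B-type natriuretic peptide, CORIN encodes the membrane protease that cleaves the atrial precursor, and NPR1, NPR2 and NPR3 encode the receptors. The rule uses gene symbols and no measured value, and all 6 genes passed the filter on low counts.

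RNA came from the hearts of 21 newborn to 4-week-old pigs, 1 library per pig. In 8 of them a permanent tie of the left descending coronary artery on postnatal day 1 had produced a myocardial infarction (MI), and tissue was taken next to the ischaemic area on day 7 (n = 3), day 14 (n = 3) or day 28 (n = 2). The other 13 hearts, called naive in the sample titles, were sampled in the matching region on day 1 (n = 2), day 3 (n = 2), day 7 (n = 3), day 14 (n = 3) or day 28 (n = 3). For strain, genotype, sex, litter and library batch, the sources used here give no entry. All pigs were fed bovine colostrum and then milk in a warmed incubator. The protocol states that the age-matched pigs had every surgical step but the tie, and the titles do not say which naive pigs, if any, went without surgery. Replicate pigs are listed below in the order of their replicate numbers. The edgeR p-values set a difference against a spread between pigs that is estimated over all 8 groups together. The permutation p-values of relations between measures come from shuffling the 21 libraries across groups.

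Atrial and B-type natriuretic peptides are hormones of the heart muscle cell. They are released when the heart wall is stretched, and they promote salt and water loss and relax vessels. The NPR1 receptor responds to both peptides and the NPR2 receptor mainly to C-type natriuretic peptide. Each of these receptors makes the second messenger cyclic GMP, whereas NPR3 binds all these peptides and removes them from the circulation. In the growing ventricle NPPA and NPPB are known as genes of the fetal and stressed muscle cell, with levels that fall after birth and rise again under load.

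In the RefSeq annotation of Sscrofa11.1, the build named in the submitters' processing notes, NPPA (chr6:71919557-71921345, minus strand) and NPPB (chr6:71930374-71931843, minus strand) lie 9028 bases apart and run in the same direction. The chloride transporter gene CLCN6 lies 4540 bases beyond NPPA. CORIN lies on chr8:37530812-37811226 (minus strand), NPR1 on chr4:95957220-95974253 (minus strand), NPR2 on chr1:236508994-236529172 (plus strand) and NPR3 on chr16:18841540-18929813 (plus strand). The spans of genes on the opposite strand, introns included, overlap exons of CORIN (ATP10D), NPR2 (SPAG8) and NPR3 (a long noncoding RNA). Whether exons of both genes share bases there was not tested. The sources used here do not state whether counting used strand, so reads in any such shared bases cannot be assigned to either gene. No annotated gene overlaps NPPA, NPPB or NPR1.

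The 250 bases before the start of the NPPA and NPPB genes (RefSeq, Sscrofa11.1, minus strand, read 5′ to 3′ towards the gene) are shown because these neighbouring genes varied together across pigs. They are chr6:71921346-71921595 for NPPA and chr6:71931844-71932093 for NPPB. Capitals mark matches to short motifs of cardiac transcription factors, searched on both strands.
NPPA: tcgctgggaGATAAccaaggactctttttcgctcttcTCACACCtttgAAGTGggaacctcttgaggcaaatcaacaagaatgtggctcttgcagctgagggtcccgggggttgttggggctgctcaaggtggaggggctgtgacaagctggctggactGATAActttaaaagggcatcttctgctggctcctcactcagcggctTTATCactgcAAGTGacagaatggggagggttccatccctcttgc
NPPB: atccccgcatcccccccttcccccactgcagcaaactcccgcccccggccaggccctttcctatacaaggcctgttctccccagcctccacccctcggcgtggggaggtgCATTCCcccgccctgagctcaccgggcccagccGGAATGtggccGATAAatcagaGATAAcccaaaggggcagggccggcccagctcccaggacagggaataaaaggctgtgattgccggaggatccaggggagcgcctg
The searched letters were GATAA (GATA factors), AAGTG (NKX2-5), GGTGTGA (T-box factors), CATTCC (the M-CAT element bound by TEAD factors), TGANTCA (AP-1) and TATAAA (the TATA box, plus strand only). The CArG element was searched as a run of A or T between CC and GG. The MEF2 element was searched as a run of A or T between CTA and TAG. NPPA had 3 matches to GATAA (241 to 237, 91 to 87 and, on the opposite strand, 45 to 41 bases before the start). It also had 2 matches to AAGTG (202 to 198 and 35 to 31 bases before the start) and 1 to GGTGTGA on the opposite strand (213 to 207). NPPB had 2 matches to GATAA (96 to 92 and 85 to 81) and 2 to CATTCC (140 to 135 and, on the opposite strand, 107 to 102). None of these matches overlapped another. GATAA, the motif found in both windows, was present in 19.1% of 19556 promoter windows of the same length, AAGTG in 35.1%, CATTCC in 10.3% and GGTGTGA in 2.53%. AP-1, TATA box, CArG and MEF2 letters, with shares of 5.27%, 6.15%, 1.31% and 0.47%, were not in either window. A match describes the letters of the window only.

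Library totals ranged from 37002909 to 95559841 counts, and the 13 mitochondrially encoded genes took 15.8% to 34.6% of them. Ventricular muscle markers were abundant in every library (8 of 9 passed the filter, with MYH7 at 17667 to 60020 counts-per-million (CPM), while TNNI3 is listed at 0). Among atrial markers, SLN (at most 1.23 CPM), MYBPHL (at most 0.855 CPM) and BMP10 (at most 1.84 CPM) were at or near 0. Others were present, with MYL4 at 19.6 to 484, KCNJ3 at 38.5 to 127, KCNA5 at 11.4 to 55.5 and NR2F1 at 0.634 to 11.5 CPM, and MYL7 was not found by symbol. In a set of 4 libraries (MI day 28 pig 2, MI day 7 pig 3, naive day 14 pig 3 and naive day 28 pig 2), the gene ENSSSCG00000035520 was at 5.06 to 12.1 CPM, against 2820 to 8810 in the other 17. In MI day 28, macrophage markers summed to 249 and 2824 CPM in pigs 1 and 2, and adipocyte markers to 154 and 2.22. In naive day 28 these sums were 55.5 to 303 and 1.46 to 1.71. Tissue was measured in bulk, so fewer cells of a type and less RNA per cell cannot be told apart.

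CPM values use library sizes scaled by edgeR's trimmed mean of M values. NPPA, the atrial peptide gene, ranged 918-fold over the 21 hearts, from 1.52 CPM (98 reads) to 1398 CPM (112198 reads). In naive hearts it was at 79.5 and 234 CPM on day 1 and at 398 and 11.8 CPM on day 3. On day 7 the naive values were 34.7, 313 and 24.3 CPM, on day 14 they were 5.49, 18.0 and 38.4 CPM, and on day 28 they were 52.0, 31.9 and 375 CPM. In 4 of the 5 naive ages 1 heart was at 234 to 398 CPM while the others of that age were at or under 79.5 CPM, and on day 14 all 3 hearts were under 40 CPM. After MI, NPPA was at 1398, 223 and 80.8 CPM on day 7 and at 18.7, 37.6 and 156 CPM on day 14. The 2 hearts of MI day 28 were at 1.52 and 70.6 CPM, of which the former was the lowest value of the series. The highest value of the series was in MI day 7, and on each of the 3 days the MI range overlapped the naive range.

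NPPB, the B-type peptide gene, ranged 166-fold, from 1.9 to 316 CPM. Naive hearts had 5.8 and 316 CPM on day 1, 48.6 and 1.9 CPM on day 3, 4.87, 78.8 and 13.8 CPM on day 7, 9.59, 22.3 and 15 CPM on day 14, and 40.5, 4.19 and 56.9 CPM on day 28. The highest and the lowest NPPB level of the series were thus both in naive hearts of the first 3 days, and the highest heart was the day 1 pig that also had the higher NPPA level. MI hearts had 226, 80.8 and 34.0 CPM on day 7, 5.42, 8.04 and 3.01 CPM on day 14, and 4.65 and 42.0 CPM on day 28. On day 14 all 3 MI hearts were below all 3 naive hearts, and on the other 2 days the groups overlapped.

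**Figure D1:**
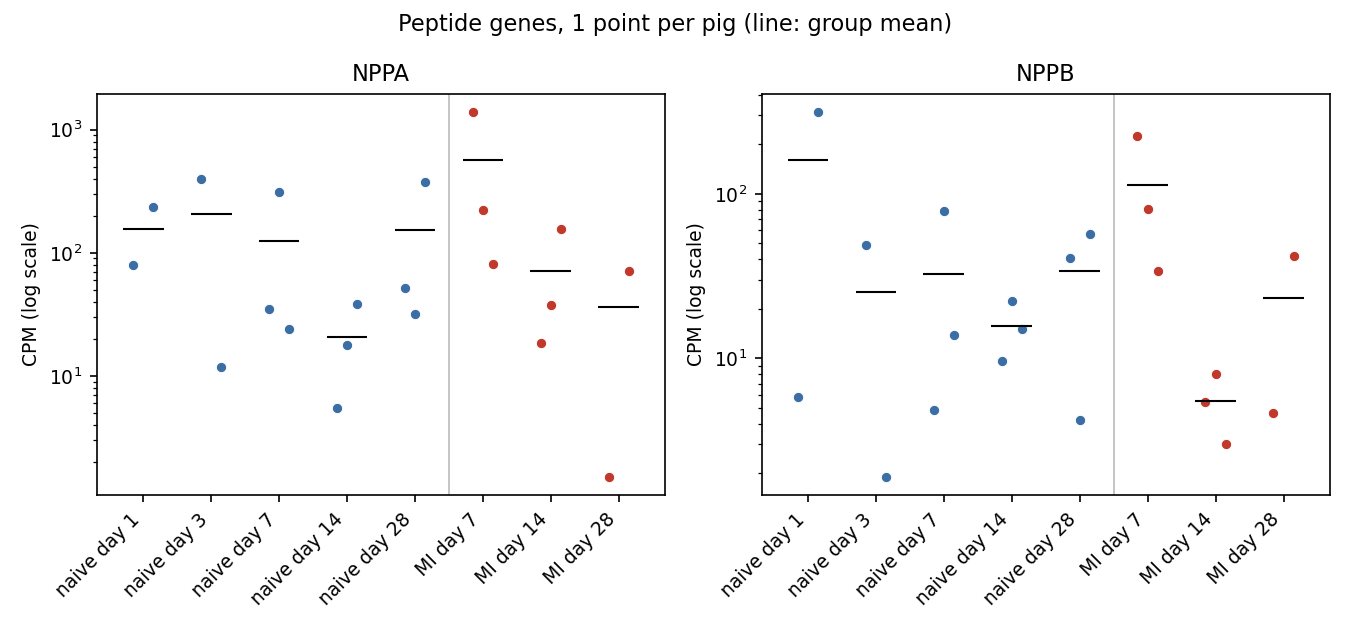
NPPA (left) and NPPB (right) in each of the 21 hearts, in CPM on a log axis, by group; each point is 1 pig, blue for naive and red for MI, and each line is the group mean. Within a group NPPA levels of different pigs lay up to 46.3-fold apart and NPPB levels up to 54.5-fold, and only NPPB on day 14 separated MI from naive hearts.

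The spread between pigs of 1 group was the main feature of the peptide genes. The SD of log2 CPM within groups was 2.18 for NPPA and 2.05 for NPPB, which placed them at percentiles 99.7 and 99.6 of the 15359 genes tested, where the median SD was 0.38. Group ranges (highest over lowest pig) were 2.95-fold to 46.3-fold for NPPA and 2.32-fold to 54.5-fold for NPPB. The protease and receptor genes varied far less. CORIN had an SD of 0.48 (percentile 60.2), NPR1 0.42 (percentile 53.7) and NPR2 0.22 (percentile 17), and NPR3 lay between these genes and the peptides at 0.86 (percentile 82.3). The lowest counts of any library were 98 reads for NPPA and 117 reads for NPPB. The part of counting error in the spread was not tested.

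**Figure D2:**
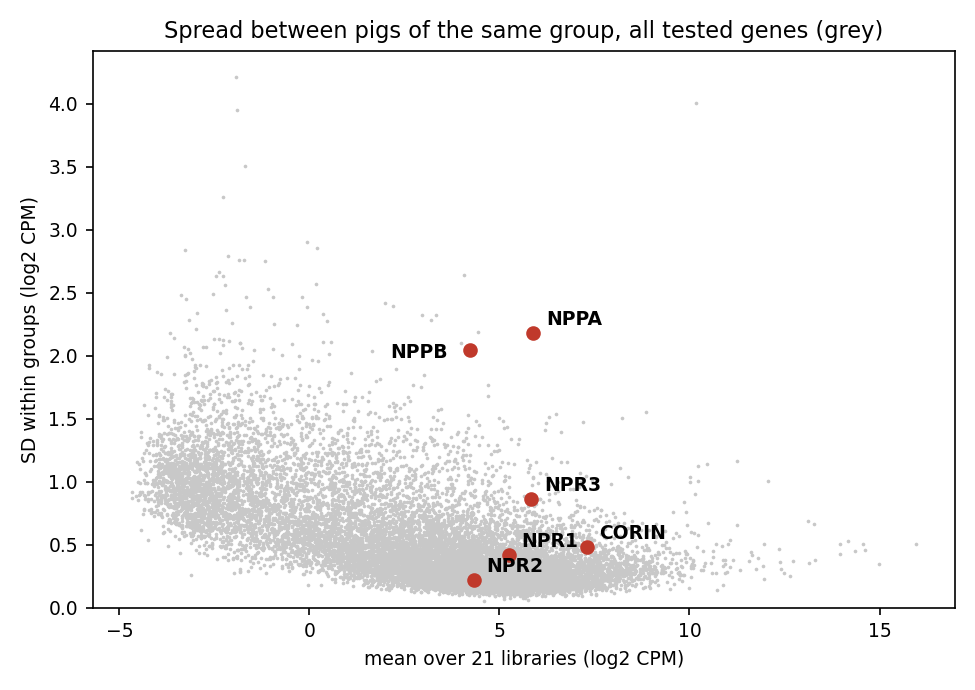
SD of log2 CPM between pigs of the same group (vertical) against mean log2 CPM over 21 libraries (horizontal) for all 15359 tested genes (grey) and the 6 genes described (red). NPPA and NPPB sit above most other genes of their mean level, at SDs of 2.18 and 2.05.

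CORIN, the protease that activates the atrial peptide on the muscle cell surface, stayed within a 3.01-fold range over all 21 hearts. Naive hearts had 120 and 163 CPM on day 1, 153 and 191 CPM on day 3, 200, 201 and 184 CPM on day 7, 98.7, 152 and 247 CPM on day 14, and 168, 169 and 128 CPM on day 28. MI hearts had 218, 211 and 108 CPM on day 7, 118, 121 and 276 CPM on day 14, and 147 and 91.6 CPM on day 28. MI and naive ranges overlapped on all 3 days. Both the highest and the lowest CORIN level were in MI hearts (day 14 pig 3 and day 28 pig 2).

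NPR1, the receptor through which both peptides raise cyclic GMP, was at 23.8 to 84.3 CPM. In naive hearts it was at 59.3 and 26.6 CPM on day 1, 34.7 and 48.9 CPM on day 3, 34.2, 30.3 and 33.9 CPM on day 7, 48.4, 39.6 and 53.2 CPM on day 14, and 38.0, 52.3 and 23.8 CPM on day 28. In MI hearts it was at 24.3, 30.1 and 33.2 CPM on day 7, 43.2, 29.1 and 27.6 CPM on day 14, and 84.3 and 47.8 CPM on day 28. The highest level was in the MI day 28 heart that had the lowest NPPA, and the other MI day 28 heart was inside the naive day 28 range. On days 7 and 14 the NPR1 ranges of MI and naive hearts also overlapped.

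NPR2, the C-type peptide receptor, was the steadiest of the 6 genes. Its levels lay between 15.4 and 25.7 CPM in all 21 hearts, a 1.66-fold range. The group means were 17.5 to 23.2 CPM in naive hearts and 19.3 to 22.3 CPM in MI hearts, and every MI group overlapped the naive group of its day. Its main ligand gene, NPPC, was close to the floor of detection at 0.0649 to 0.932 CPM.

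NPR3, the clearance receptor, was mostly at 37.9 to 93.8 CPM, with 4 hearts outside that range. Naive hearts had 16.5 and 125 CPM on day 1, 37.9 and 44.7 CPM on day 3, 64.9, 70.4 and 58.2 CPM on day 7, 46.8, 62.0 and 77.5 CPM on day 14, and 68.4, 60.8 and 57.7 CPM on day 28. MI hearts had 93.8, 61.0 and 56.5 CPM on day 7, 72.1, 42.2 and 63.9 CPM on day 14, and 143 and 18.9 CPM on day 28. The 4 outlying values were the 2 pigs of naive day 1 and the 2 pigs of MI day 28, 1 high and 1 low in each group. In MI day 28 the pig with 143 CPM of NPR3 was also the highest in NPR1, while in naive day 1 the pig with 16.5 CPM of NPR3 had the higher NPR1 level.

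**Figure D3:**
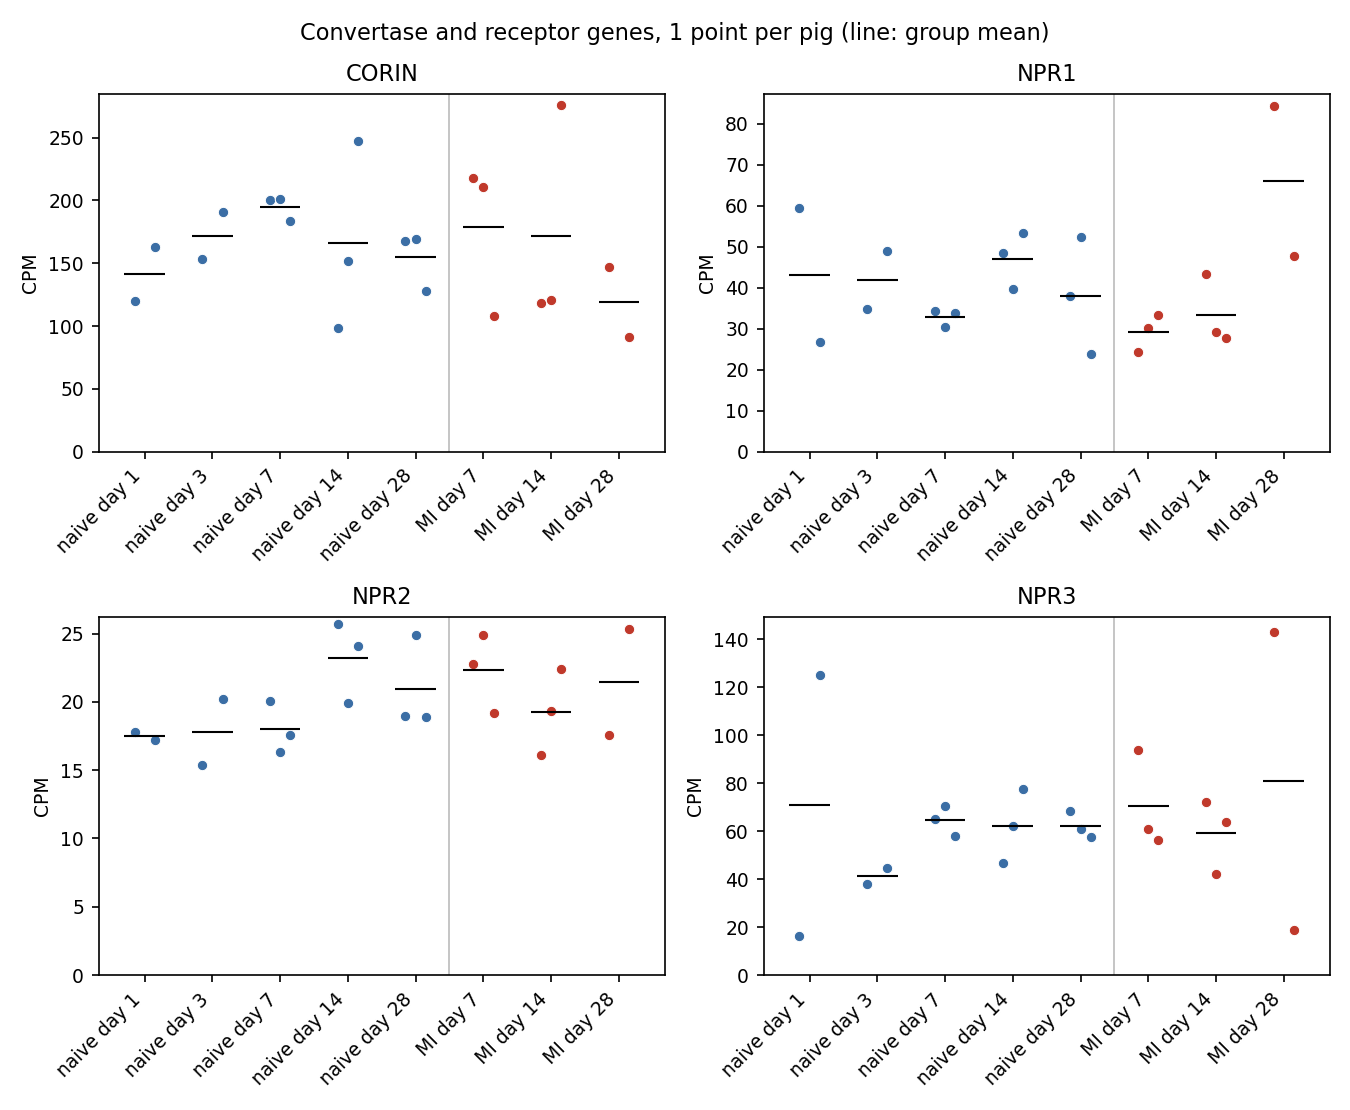
CORIN, NPR1, NPR2 and NPR3 in each of the 21 hearts, in CPM on linear axes from 0, by group; each point is 1 pig, blue for naive and red for MI, and each line is the group mean. NPR2 stayed between 15.4 and 25.7 CPM, and the NPR3 values of naive day 1 and MI day 28 were split 7.56-fold and 7.55-fold between 2 pigs.

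Ordered by group mean, NPPA ran from 567 ± 723 CPM in MI day 7 (SD, n = 3) to 20.6 ± 16.6 CPM in naive day 14 (SD, n = 3), and NPPB from 161 ± 219 CPM in naive day 1 (SD, n = 2) to 5.49 ± 2.52 CPM in MI day 14 (SD, n = 3). For NPPA, every pair of neighbours in this order overlapped. For NPPB, 1 pair of neighbours did not, naive day 14 at 15.6 ± 6.35 CPM and MI day 14. For CORIN, NPR1, NPR2 and NPR3, all neighbours overlapped. To compare levels between genes, CPM was divided by the annotated exon length. The median over 21 hearts was then 58.6 CPM per kb for NPPA, 22.4 for NPPB, 20.0 for CORIN, 7.43 for NPR3, 6.47 for NPR1 and 4.55 for NPR2. Over single hearts NPPA ranged from 1.71 to 1580 CPM per kb.

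The first comparison asked whether the infarct border on day 7, 6 days after the tie, differed from naive heart of the same age. Neither peptide gene passed the test, although their fitted levels were the furthest apart of the 6 genes. The fitted log2 fold change of NPPA was 2.19 (SE 1.52, 95% interval -1.02 to 5.41, edgeR adjusted p = 0.588) and that of NPPB was 1.80 (SE 1.34, 95% interval -1.02 to 4.63, edgeR adjusted p = 0.616). Without the MI heart at 1398 CPM the NPPA value was 0.29 and the NPPB value 0.82, and without the naive heart at 313 CPM of NPPA they were 4.27 and 3.60. For CORIN the value was -0.13 (SE 0.36) and for NPR1 it was -0.17 (SE 0.31). The NPR2 value was 0.31 (SE 0.19) and the NPR3 value 0.13 (SE 0.59), with edgeR adjusted p-values of 0.523 to 0.954 for these 4 genes. None of the 6 genes was called at an adjusted p under 0.05, as was the case for every gene of the comparison (0% called, 1905 genes with an unadjusted p under 0.05). DESeq2 called 263 genes and limma's voom with sample weights 2050. By voom, NPR2 was called at a log2 fold change of 0.42 (adjusted p = 0.0400), and DESeq2 called none of the 6. None of the 6 genes separated the groups, against 24.3% of all genes.

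On day 14, 13 days after the tie, the peptide genes went apart in fitted direction. NPPA had a log2 fold change of 1.78 (SE 1.5, 95% interval -1.40 to 4.96) and NPPB of -1.51 (SE 1.34, 95% interval -4.34 to 1.32). Both had an edgeR adjusted p of 0.999. Without the MI heart at 156 CPM the NPPA value was 0.45, and it ranged from 0.45 to 2.59 over the hearts left out in turn. NPPB was the 1 gene of the 6 whose groups did not overlap on day 14, which was the case for 8.22% of all genes, and the 3.01 to 8.04 CPM of MI hearts faced 9.59 to 22.3 CPM in naive hearts. NPR1 was at -0.50 (SE 0.31), NPR2 at -0.27 (SE 0.19), CORIN at 0.05 (SE 0.36) and NPR3 at -0.06 (SE 0.59), all with an edgeR adjusted p of 0.999. Again no gene of the 6 and no gene of the table was called by edgeR (0%, with 821 genes at an unadjusted p under 0.05), while DESeq2 called 14 genes and voom 0, none of them among the 6.

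Because the peptide genes are neighbours whose reads come from the same library, the ratio of NPPA to NPPB reads was also compared, a measure chosen after the data had been seen. On day 14 the ratio was 3.44, 4.67 and 51.9 in MI hearts and 0.573, 0.811 and 2.56 in naive hearts. All 3 MI hearts were above all 3 naive hearts, and the mean log2 ratio was 3.24 ± 2.14 in MI and 0.08 ± 1.13 in naive hearts (SD, n = 3 each). The difference of 3.15 on the log2 scale had an exact two-sided permutation p of 0.1, the smallest that 3 against 3 pigs allow, and an adjusted p of 0.3 over the 3 days. Without the heart with a ratio of 51.9 the difference was 1.92. On day 7 the mean log2 ratio differed by -0.10 (exact permutation p = 0.9). On day 28 it differed by -2.43, with ratios of 0.328 and 1.68 in MI hearts and 1.28, 7.62 and 6.6 in naive hearts (exact permutation p = 0.3, where 2 against 3 pigs cannot go below 0.1), and leaving out each heart moved the difference between -3.61 and -1.26.

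On day 28, 27 days after the tie, 1053 genes were called (6.86% of those tested, 687 higher and 366 lower in MI), and none of the 6 genes was among them. The count fell to 17 without naive day 28 pig 3, to 169 without pig 2 and to 314 without pig 1 of that group. NPR1 came nearest, at a log2 value of 0.80 (SE 0.34, 95% interval 0.07 to 1.52, unadjusted p = 0.0330, edgeR adjusted p = 0.147). NPPA was at -2.09 (SE 1.77, 95% interval -5.82 to 1.65, edgeR adjusted p = 0.465; -0.22 without the naive heart at 375 CPM and -6.63 without the MI heart at 70.6 CPM) and NPPB at -0.54 (SE 1.47, 95% interval -3.66 to 2.58, edgeR adjusted p = 0.844). The remaining values were -0.38 for CORIN (SE 0.41), 0.03 for NPR2 (SE 0.21) and 0.38 for NPR3 (SE 0.65), with edgeR adjusted p-values of 0.574 to 0.939. No gene of the 6 separated the groups, against 37.8% of all genes. The MI group had 2 pigs that differed 46.3-fold in NPPA, 9.05-fold in NPPB and 7.55-fold in NPR3.

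The MI day 28 heart with the highest NPR1 level also differed in its cell markers. Endothelial markers, of the cells in which NPR1 is known to be abundant, summed to 1383 CPM in that heart and 969 CPM in the other MI heart, against 758 to 1114 CPM in naive day 28 hearts. The highest endothelial sum of the series was 1898 CPM, in naive day 1 pig 1. All 8 endothelial markers were tested and 0 were called, beside 6.86% of all genes called on day 28. Endocardial markers summed to 415 and 219 CPM in MI day 28 and 112 to 206 CPM in naive day 28, and 1 of 3 was called (TMEM100, log2 fold change 1.73, SE 0.47, edgeR adjusted p = 0.0391). Smooth muscle and pericyte markers summed to 1598 CPM in the heart with the highest NPR1 and 690 CPM in the other MI heart, against 869 to 956 CPM in naive day 28. Beside the same 6.86% of all genes, 3 of these 6 markers were called higher (ACTA2, MYH11 and TAGLN). The sum in the other MI heart was nevertheless below that of every naive day 28 heart. TAGLN was near the floor at 0.0811 to 1.95 CPM over all libraries. Fibroblast markers summed to 1750 CPM in the heart with the highest NPR1 and 20119 CPM in the other MI heart, against 3750 to 6465 CPM in naive day 28. The heart with the highest NPR1 also had the highest adipocyte sum (154 CPM) and mitochondrial share (34.6%) of the series. The part of these markers and of the mitochondrial share in the NPR1 level was not tested. Without the set of 4 libraries named above, NPR1 was at 1.46 and was called (edgeR adjusted p = 0.0466), but that left 1 MI heart, whose variation is assumed to be that of the other groups. Without the MI heart at 84.3 CPM the value was 0.36 (edgeR adjusted p = 0.641), and without the naive heart at 23.8 CPM it was 0.55 (edgeR adjusted p = 0.375).

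**Figure D4:**
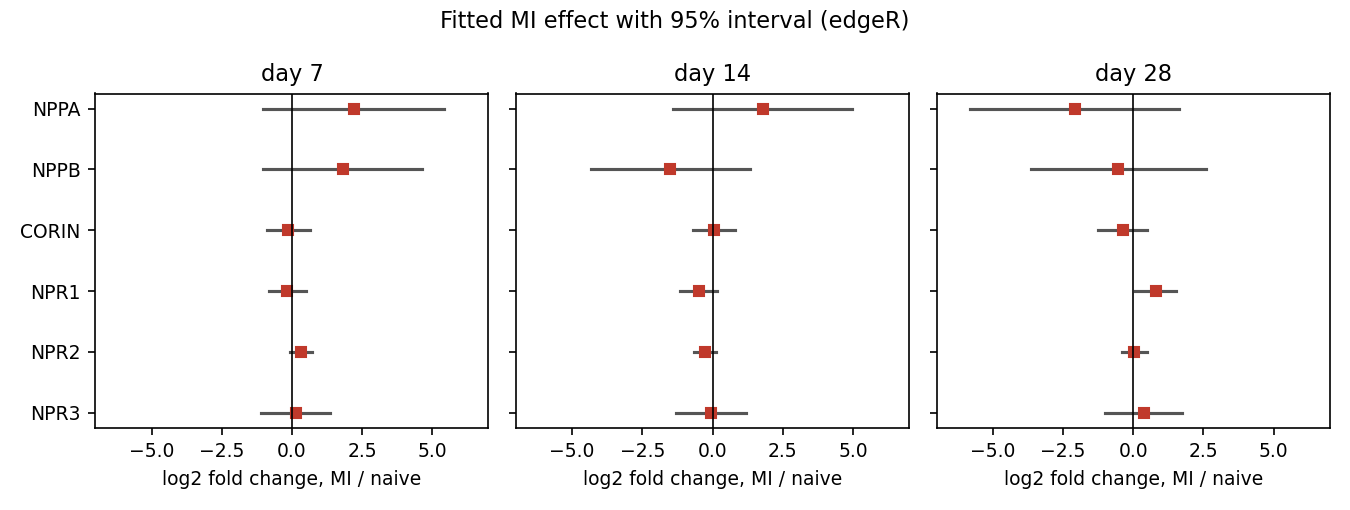
Fitted log2 fold change of MI over naive hearts with its 95% interval (edgeR) for the 6 genes on days 7, 14 and 28; the vertical line is no difference. Peptide intervals are several units wide, from -1.02 to 5.41 for NPPA on day 7, and the interval of NPR1 on day 28 runs from 0.07 to 1.52.

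Whether the MI effect itself differed between days was tested with interaction contrasts, which share the day 7 samples. From day 7 to day 14 the effect on NPPB changed by -3.31 (SE 1.89, unadjusted p = 0.0982, edgeR adjusted p = 0.776) and that on NPPA by -0.41 (SE 2.06, edgeR adjusted p = 0.986). The effect on NPR2 changed by -0.58 (SE 0.26, unadjusted p = 0.0427, edgeR adjusted p = 0.694), from 0.31 on day 7 to -0.27 on day 14. From day 7 to day 28 the effect on NPPA changed by -4.28 (SE 2.35, unadjusted p = 0.0867, edgeR adjusted p = 0.329), that on NPPB by -2.34 (SE 2.01, edgeR adjusted p = 0.549) and that on NPR1 by 0.96 (SE 0.46, unadjusted p = 0.0533, edgeR adjusted p = 0.270). With each heart left out in turn these day 28 changes ranged from -8.78 to -2.38 for NPPA, -4.61 to -1.36 for NPPB and 0.56 to 1.38 for NPR1. None of the 6 genes was called in either contrast, where edgeR called 1 gene (0.00651%) and 2 genes (0.013%) of all, and 1086 and 2924 genes had an unadjusted p under 0.05. DESeq2 called 27 and 695 genes and voom 4 and 33, none of them among the 6.

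Age was compared within naive hearts, over which peptide genes are known to fall in many mammals. No trend of either peptide passed the test here. From day 1 to day 7 the fitted log2 value was -2.31 for NPPB (SE 1.45, edgeR adjusted p = 0.922) and -0.34 for NPPA (SE 1.62, edgeR adjusted p = 0.995), and without the day 1 heart at 316 CPM the NPPB value was 2.48. CORIN was at 120 to 163 CPM on day 1 and 184 to 201 CPM on day 7, but did not pass the test (log2 difference 0.47, SE 0.41, edgeR adjusted p = 0.943). It was the 1 gene of 6 whose groups did not overlap, against 24.7% of all genes. From day 7 to day 28 CORIN was again the 1 gene of 6 without overlap, against 18.3% of all genes, with 128 to 169 CPM on day 28 and a fitted value of -0.33 (SE 0.36, edgeR adjusted p = 0.886). NPPA was at 0.30 (SE 1.46), NPPB at 0.06 (SE 1.30), NPR1 at 0.21 (SE 0.31), NPR2 at 0.22 (SE 0.19) and NPR3 at -0.05 (SE 0.59) over the same ages. In the test for any difference over the 5 ages, NPPB had the lowest unadjusted p of the 6 genes (0.180), and all 6 had an edgeR adjusted p of 0.9996. By edgeR none of the 6 and no gene of the table was called in the 2 contrasts or the 5-age test (0% in each), with 835 and 1103 genes at an unadjusted p under 0.05 in the contrasts. DESeq2 called 12, 57 and 57 genes and voom 0, 438 and 0, none of them among the 6.

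Across the 21 hearts the 2 peptide genes moved together. On log2 CPM, NPPA and NPPB had a Pearson r of 0.70 (permutation p = 0.00032, adjusted p = 0.00103) and a Spearman rho of 0.71 (permutation p = 0.00039, adjusted p = 0.00103, over the 6 p-values of 3 relations). On deviations from the group means, which remove age and MI, r was 0.74 and rho 0.77. Without the 2 hearts farthest from the NPPA median (MI day 28 pig 1 and MI day 7 pig 1) r was 0.64 (permutation p = 0.00325), and without the set of 4 libraries it was 0.71; that set itself is too small for a value. The points share the scaling of each library.

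NPPA also followed the mean log2 CPM of the atrial marker list, with r = 0.68 (permutation p = 0.00062, adjusted p = 0.00103) and rho = 0.69 (permutation p = 0.00069, adjusted p = 0.00103). Deviations from group means gave r = 0.83, and the value without the 2 hearts farthest in the list mean (MI day 7 pig 1 and naive day 7 pig 2) was 0.57 (permutation p = 0.0102). The list summed to 592 CPM in MI day 7 pig 1, where NPPA was highest, and to 478 CPM in naive day 7 pig 2, where NPPA was at 313 CPM. It summed to 113 CPM in MI day 28 pig 1, where NPPA was lowest, but only to 164 CPM in naive day 3 pig 1, where NPPA was at 398 CPM. On the mean log2 CPM used for r, MI day 7 pig 1 was at 1.46 and naive day 7 pig 2 at 1.38. On that measure MI day 28 pig 1 was at 0.51 and naive day 3 pig 1 at 1.22, within a range of 0.12 to 1.46 over all hearts. The list members at the highest levels were MYL4, a light chain of atrial and fetal ventricular muscle, and KCNJ3, a potassium channel subunit, while SLN, MYBPHL and BMP10 were at or near 0 as given above. The part of this list in the NPPA level was not tested. For NPR3 and the endothelial marker mean, r was -0.03 (permutation p = 0.907, adjusted p = 0.907) and rho 0.22 (permutation p = 0.331, adjusted p = 0.397), and r became 0.41 (permutation p = 0.0835) without the 2 hearts farthest in the marker mean.

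The other 14 pairs of the 6 genes, and 3 relations with tissue measures, were computed after the data had been seen, with 34 p-values adjusted together. NPR1 ran against the peptides: NPPA and NPR1 had r = -0.77 (permutation p = 4e-05, adjusted p = 0.00136) and rho = -0.68 (permutation p = 0.00096, adjusted p = 0.00816). NPPB and NPR1 had r = -0.58 (permutation p = 0.00596, adjusted p = 0.0289) and rho = -0.56 (permutation p = 0.00901, adjusted p = 0.0383). On deviations from group means the values were -0.73 and -0.80, and without the set of 4 libraries -0.80 and -0.60. Without the 2 hearts farthest in the peptide, r was -0.61 for NPPA (permutation p = 0.00592, adjusted p = 0.101) and -0.45 for NPPB (permutation p = 0.0495, adjusted p = 0.285), so neither relation passed the adjustment in that setting. No other pair of the 6 genes had an adjusted p of r under 0.05, and the next was CORIN with NPR3 (r = 0.47, permutation p = 0.0281, adjusted p = 0.0796).

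NPR1 followed the endothelial marker mean, with r = 0.71 (permutation p = 0.00035, adjusted p = 0.00595), rho = 0.65 (permutation p = 0.00198, adjusted p = 0.0135) and r = 0.90 on deviations from group means. Without the 2 hearts farthest in the marker mean r was 0.62 (permutation p = 0.00423, adjusted p = 0.101). The share of mitochondrially encoded reads moved with these genes too. It had r = -0.59 with NPPA (permutation p = 0.00472, adjusted p = 0.0267) and r = 0.68 with NPR1 (permutation p = 0.00079, adjusted p = 0.00816). The rho values were -0.49 (permutation p = 0.0247, adjusted p = 0.0796) and 0.54 (permutation p = 0.0123, adjusted p = 0.0465). On deviations from group means r with that share was -0.55 for NPPA and 0.70 for NPR1, and without the set of 4 libraries -0.69 and 0.71. The 2 hearts farthest in the share were MI day 28 pig 1 at 34.6% and naive day 28 pig 2 at 30.9%. Without them r was -0.41 (permutation p = 0.0852, adjusted p = 0.285) and 0.44 (permutation p = 0.0572, adjusted p = 0.285). In that setting neither relation passed the adjustment. The part of cell makeup and of the mitochondrial share in the relation of NPPA and NPR1 was not tested.

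**Figure D5:**
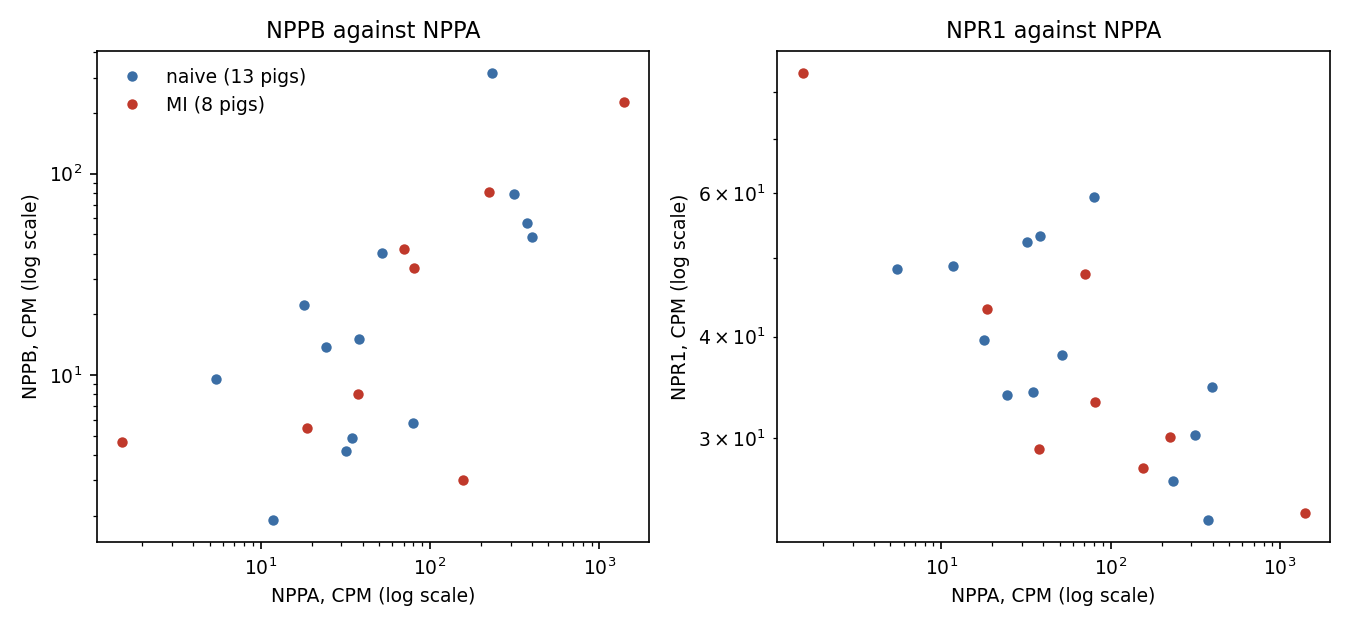
NPPB (left) and NPR1 (right) against NPPA in 21 hearts, CPM on log axes; each point is 1 pig, blue for the 13 naive and red for the 8 MI hearts. NPPB lies higher where NPPA is higher (r = 0.70) and NPR1 lower (r = -0.77), with naive and MI hearts mixed along both clouds.

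For each of the 6 genes, the 3 named genes with the most similar profile over the 21 libraries were listed by Pearson r on log2 CPM, as a description. They were SRP72, CAND1 and ZDHHC15 for NPPA (0.83, 0.82 and 0.80) and DKK3, SCD and HMGCLL1 for NPPB (0.76, 0.71 and 0.71). CORIN was closest to KLHL31, CLIC4 and CSNK1A1 (0.87, 0.82 and 0.82). NPR1 was closest to EPB41L4A, KANK3 and PRRG2 (0.88, 0.84 and 0.84), NPR2 to TUT1, CLCN2 and RAX2 (0.80, 0.80 and 0.79) and NPR3 to MAFK, RETREG1 and PDE4D (0.81, 0.79 and 0.79). Neither peptide gene was among the 3 closest to the other.

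A list of 24 further genes of the pathway covered other ligands, processing and clearance enzymes, cyclic GMP synthesis and breakdown, and cyclic GMP targets. All 24 were tested. The median log2 fold change of the list was 0.06 on day 7, 0.06 on day 14 and -0.05 on day 28, beside 0.03, -0.01 and 0.00 over all genes. None of the 24 was called on days 7 or 14, in the interaction contrasts or between naive ages. Over all genes edgeR called 0% on days 7 and 14 and between naive ages. In the interaction contrasts it called 0.00651% and 0.013%, so the list could hardly differ from all genes there. On day 28, 1 of 24 was higher and 1 lower in MI, a share close to the 6.86% called over all genes. RGS2, a cyclic GMP kinase target that dampens signalling of vasoconstrictor receptors, was at 40.8 and 55.9 CPM in MI hearts and 7.22, 9.74 and 2.84 CPM in naive hearts, and it rose (log2 fold change 2.87, SE 0.50, edgeR adjusted p = 0.0120). PDE3B, a phosphodiesterase inhibited by cyclic GMP, was at 43.8 and 54.7 CPM in MI hearts and 132, 104 and 169 CPM in naive hearts, and it fell (log2 fold change -1.45, SE 0.33, edgeR adjusted p = 0.0243). In both genes the groups were apart, as they were in 37.8% of all genes on that day. Without naive day 28 pig 3 the calls were lost (RGS2 2.51, edgeR adjusted p = 0.0529, and PDE3B -1.26, 0.0891), as they were with only the 2 groups in the fit (adjusted p = 0.131 and 0.144), and PDE3B also without MI day 28 pig 1 (-1.28, 0.0731) and by voom (-1.36, 0.144). On the same day markers of macrophages (5 of 7 higher), smooth muscle and pericytes (3 of 6 higher) and adipocytes (3 of 4 higher) were called too. So were markers of fibroblasts (1 of 8 higher), epicardium (1 of 3 higher), endocardium (1 of 3 higher), atrial muscle (1 of 8 higher, 1 lower) and ventricular muscle (3 of 8 lower). In MI day 28 pigs 1 and 2, macrophage markers summed to 249 and 2824 CPM, against 55.5 to 303 CPM in naive day 28. In the same 2 pigs adipocyte markers summed to 154 and 2.22 CPM, and smooth muscle and pericyte markers to 1598 and 690 CPM. The part of these markers in the RGS2 and PDE3B levels was not tested.

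Among the processing and clearance enzymes, FURIN, a convertase that cleaves the B-type precursor, was at 84.7 to 286 CPM, with overlapping MI and naive ranges on each of the 3 days. MME encodes neprilysin, which degrades natriuretic peptides, and it was singled out after its values had been seen. On day 7 it was at 0.287, 4.52 and 2.23 CPM in MI hearts and 15.8, 4.92 and 15.8 CPM in naive hearts. On day 14 MI hearts had 3.41 to 6.71 CPM and naive hearts 13.4 to 25.7 CPM, and on day 28 the values were 2.35 to 2.86 CPM and 4.22 to 18.5 CPM. All MI hearts were below all naive hearts of their day, where 24.3%, 8.22% and 37.8% of all genes did not overlap on days 7, 14 and 28. The test was not passed on day 7 (log2 fold change -2.37, SE 0.71, edgeR adjusted p = 0.198), day 14 (-1.79, SE 0.69, edgeR adjusted p = 0.872) or day 28 (-2.02, SE 0.82, edgeR adjusted p = 0.127). OSTN, a ligand of the clearance receptor, was at 0 to 3.99 CPM.

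Of 16 transcription factors known to act on the NPPA or NPPB promoter, all tested, none was called on days 7 or 14. Over all genes 0% were called on these days. On day 28, where 6.86% of all genes were called, 1 factor was higher and 1 lower. NFATC4, a calcium-signalled factor, was called higher (16.5 and 17.5 CPM in MI, 5.55 to 7.56 CPM in naive hearts; log2 fold change 1.31, SE 0.33, edgeR adjusted p = 0.0308). TEAD1, a factor of the M-CAT element marked above, was called lower (21.1 and 23.0 CPM in MI, 62.3 to 66.5 CPM in naive hearts; log2 fold change -1.54, SE 0.39, edgeR adjusted p = 0.0329). Both were named after their values had been seen, and both calls were lost when any 1 heart of the comparison was left out (NFATC4 1.18 to 1.40, TEAD1 -1.57 to -1.45). They were also lost without the set of 4 libraries (edgeR adjusted p = 0.0727 and 0.117), with only the 2 groups in the fit (0.133 and 0.0916) and by voom (0.161 and 0.211). The median of the 16 factors on day 28 was -0.64. Of 8 other ventricular genes listed for stress or the fetal state, 7 were tested (MYH6 was not found by symbol) and none was called on any day. The 7 were MYH7, ACTA1, ANKRD1, ANKRD2, NMRK2, XIRP2 and ATP2A2. Over all genes 0%, 0% and 6.86% were called on days 7, 14 and 28. ATP2A2 is not a fetal or stress-induced gene, and MYH7 also counts among the ventricular muscle markers given next. A lower level of ATP2A2 or MYH7 therefore does not by itself read as a lower stress or fetal state. The medians of the 7 genes were -0.43, -0.98 and -1.44 on days 7, 14 and 28, with all 7 below 0 on days 14 and 28. On day 28 ventricular muscle markers summed to 36924 and 44423 CPM at their lowest and highest in MI hearts, against 72562 to 83757 CPM in naive hearts, and 3 of 8 tested were called lower, beside the 6.86% of all genes called. Their part in these medians was not tested.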

How the data were processed

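RNA-seq read counts of 21 pig hearts were analysed. The tools named in the submitters' processing notes are Trim Galore, STAR 2.5.2, HTSeq 0.6.1 and DESeq2, and the build is Sscrofa11.1. The authors deposited raw counts per Ensembl gene, all whole numbers. Neither annotation release nor strand setting is stated in the sources used here. The 6 genes, the gene lists and the tests were chosen with earlier results of these data known. All 6 members are named, with up to 4 called genes of the pathway list per comparison and the 3 most similar genes per member. A symbol carried by several genes was taken from the gene with the highest total count. The level of 1 atrial marker is not reported here.

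Genes were filtered with filterByExpr (minimum count 10, 15359 kept), scaled by TMM and fitted in edgeR 4.0.16 (R 4.3.3) with 1 mean per group over all 21 libraries (glmQLFit, robust, 13 residual degrees of freedom, common biological coefficient of variation 0.373). Contrasts were tested with the two-sided quasi-likelihood F-test and Benjamini-Hochberg adjustment over the 15359 genes, and a gene is called at an adjusted p under 0.05. Standard errors and 95% intervals follow from the F statistic. The script was tested on simulated counts. Log2 CPM used a prior count of 2. Relations were tested with 100000 two-sided permutations (scipy 1.17.1). Alternatives were other size factors, no filter, a term for or removal of the set of 4 libraries, only the groups compared, DESeq2 1.42.0, limma 3.58.1 voom with sample weights, and leaving out each pig. Coordinates and promoters came from RefSeq on the same build, with all 6 symbols matched. Figures were drawn with matplotlib 3.10.9.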

Additional observations from a re-analysis of the deposited data

How the results depend on the processing

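None of the 48 gene and comparison results of the 6 genes was called in the main fit, so 0 calls could be lost. The test of naive hearts for any age difference gives no direction, so its values were compared by side of the threshold only. Of 720 values under alternatives, 661 kept that side and, where there was one, their direction. Another 57 changed sign and 2 crossed into a call. The calls were NPR2 on day 7 by voom (1 of the 6 genes called) and NPR1 on day 28 without the set of 4 libraries (1 called). The other 118 of 120 alternative counts of called members were 0. Sign changes by voom were CORIN 0.10 on day 7 and -0.09 on day 14, NPR3 -0.31 on day 28, CORIN -0.19 for day 14 minus day 7, NPR3 -0.54 for day 28 minus day 7, and NPR3 0.43 and 0.07 in naive day 7 against 1 and 28 against 7. Without the set they were CORIN 0.09 on day 7, NPR3 0.14 on day 14, NPR2 -0.10 on day 28, NPR1 -0.10 in naive day 28 against 7, and 0.17 for the day 7 log2 peptide ratio. With a term for the set they were NPPB 0.21 on day 28 and NPR3 0.12 in naive day 28 against 7. The endothelial relation of NPR3 was 0.04 on deviations and 0.41 without 2 hearts. The causes were not tested.

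Counts of called genes for MI on day 7 were 263 by DESeq2 and 2050 by voom, and on day 14 they were 2 without the set and 14 by DESeq2. On day 28 they were 646 with the term, 2 with only the groups compared, 2183 by DESeq2 and 48 by voom, and 721 with no filter. For day 14 minus day 7 they were 0 with the term, 27 by DESeq2 and 4 by voom. For day 28 minus day 7 they were 1 with the term, 367 without the set, 133 with only the groups compared, 695 by DESeq2 and 33 by voom. In naive hearts DESeq2 called 12 (day 7 against 1), 57 (28 against 7) and 57 (any age), and for 28 against 7 only the groups compared gave 4 and voom 438.

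Leaving out each pig gave 0 to 1 called genes for MI on day 14, 17 to 1167 on day 28, 0 to 1 for day 14 minus 7, 1 to 539 for day 28 minus 7, 0 to 1 for naive day 7 against 1 and 0 to 2 for any age. Log2 fold changes then ranged, for MI on day 7, from -0.29 to 0.14 (CORIN) and -0.14 to 0.26 (NPR3), and on day 14 from -0.47 to 0.46 (CORIN) and -0.23 to 0.13 (NPR3). On day 28 they ranged from -2.84 to 0.33 (NPPB), -0.22 to 0.30 (NPR2) and -1.69 to 1.23 (NPR3). For day 14 minus 7 the ranges were -2.49 to 1.49 (NPPA), -0.35 to 0.61 (CORIN) and -0.35 to 0.07 (NPR3), and for day 28 minus 7 they were -0.57 to 0.11 (CORIN), -0.50 to 0.02 (NPR2) and -1.78 to 1.14 (NPR3). For naive day 7 against 1 they were -2.41 to 0.64 (NPPA), -4.11 to 2.48 (NPPB), -0.85 to 0.30 (NPR1), -0.05 to 0.10 (NPR2) and -0.95 to 1.97 (NPR3). For naive day 28 against 7 they were -1.56 to 2.38 (NPPA), -0.53 to 1.86 (NPPB), -0.11 to 0.46 (NPR1) and -0.14 to 0.02 (NPR3), and the day 7 log2 peptide ratio ranged from -0.63 to 0.38. The lowest counts of the peptide genes were 98 (NPPA) and 117 (NPPB). No paired analysis was possible because the groups hold different pigs, replicate numbers were given in accession order, and no litter or batch links pigs of different groups in the sources used here.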
